A study of Mus musculus with 24 samples.

Results

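The genes described here are 10 genes known from the response of neurons to axon injury and from the regrowth of axons: *Atf3*, *Jun*, *Sox11*, *Sprr1a*, *Gap43*, *Ecel1*, *Klf6*, *Ddit3*, *Gadd45a* and *Stmn2*. They were taken by symbol from a written list, and all 10 were found among the 22274 genes of the table. *Ddit3* has a second entry, so that 11 entries carry the 10 symbols.

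When an axon is cut, signals travel from the lesion to the nucleus, in part along the kinases DLK and JNK, and transcription factors such as JUN and ATF3 switch on a program of injury and growth genes. The products of *Sprr1a*, *Gap43* and *Stmn2* act at the membrane and the cytoskeleton of growing axons, while *Ddit3* and *Gadd45a* respond to cell stress and DNA damage. The neurons that make vasopressin and oxytocin send their axons from the supraoptic and paraventricular nuclei down the pituitary stalk, and they are known among central neurons for regrowing axons after the stalk is cut.

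The study lesioned the pituitary stalk of male C57BL/6 J mice with an electrical current (pituitary stalk electrical lesion, PEL), delivered through a knife placed by stereotaxic positioning, and sequenced mRNA libraries from the brain. Hypothalamic tissue with the supraoptic and paraventricular nuclei came from Sham mice (labelled day 0), from PEL mice at day 3 (PEL_3d) and at day 10 (PEL_10d), and from the same 3 conditions with GH (Sham_GH, PEL_3d_GH, PEL_10d_GH). Hippocampus came from Sham mice (HIP_Sham) and from PEL mice at day 10 (HIP_PEL_10d). Each of the 8 groups held 3 libraries, 24 in all; no allele or transgene is labelled for any group, and the age of the mice and the dose and timing of GH are not given in the sources used here. Total counts per library ranged from 15095267 to 17973494, with a median of 15883699. The levels below are FPKM (fragment counts scaled for gene length and library size), and changes are log2 fold changes of counts with their standard error (SE). A change was called when its p from edgeR, adjusted over all genes tested by the method of Benjamini and Hochberg, was under 0.05. Nothing in the labels says that the libraries of a group came from separate animals, so the p-values measure the spread between these libraries, which may be technical.

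The tissue labels of 3 libraries did not match their markers or each other. The library labelled Sham 1 had 92.2 FPKM of *Neurod6*, a marker of hippocampal neurons, and 0.453 FPKM of *Avp* (vasopressin), whereas Sham 2 and Sham 3 had 0.246 and 0.209 FPKM of *Neurod6* and 140 and 223 FPKM of *Avp*. The library labelled HIP_Sham 1 was the opposite, with 0.429 FPKM of *Neurod6* and 139 FPKM of *Avp*, against 177 and 143 FPKM of *Neurod6* in HIP_Sham 2 and HIP_Sham 3. The tissue field of HIP_Sham 3 says hypothalamus, while its title says hippocampus and its *Avp* was at 0.309 FPKM. The chi-square of the counts per degree of freedom was 157 and 156 between Sham 1 and the other Sham libraries, and 157 and 160 between HIP_Sham 1 and the other HIP_Sham libraries. For the other pairs within a group it ranged from 3.19 to 19.7, and no pair held identical values.

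The genes described here differed in these libraries too. In the library labelled Sham 1, *Gap43* was at 38.8 FPKM and *Ecel1* at 2.37 FPKM, while Sham 2 had 261 and 43.7 FPKM. In the library labelled HIP_Sham 1, *Gap43* was at 259 FPKM and *Ecel1* at 42.1 FPKM, while HIP_Sham 2 had 43.1 and 0.339 FPKM. The study left out 1 hypothalamic Sham library without naming it; here Sham 1 was left out of the hypothalamic comparisons, so that Sham has 2 libraries, and the values with it are given where it changed a call or a sign. The hippocampal comparison was made with all 3 HIP_Sham libraries, and without HIP_Sham 1 beside it.

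At day 3 after the lesion, the hypothalamus held far more *Sprr1a* and *Atf3* RNA than in Sham mice, somewhat more *Klf6* and *Jun*, and slightly less *Ecel1* and *Gap43*. Of the 10 genes, 6 were called in PEL_3d against Sham, 4 higher and 2 lower, where 40.5% of the 14887 genes tested were called. At day 10, *Atf3* and *Sprr1a* were called, both higher, which makes 2 of the 10 where 9.42% of 14790 genes were called. Those 1393 genes became 205 without Sham 2 and 304 without Sham 3, and the 6025 genes of day 3 became 3395 and 3887. With Sham 1 in the fit, 3 of the 10 were called at day 3 (*Atf3*, *Sprr1a* and *Klf6*) and 2 at day 10, where 1683 and 269 genes were called in all. In the hypothalamus with GH, 6 of the 10 were called in PEL_3d_GH against Sham_GH, 4 higher and 2 lower, with 52.1% of 14743 genes called. In PEL_10d_GH against Sham_GH, 6 were called, 5 higher and 1 lower, with 31% of 14686 genes called. The comparisons at day 3 and day 10 share their Sham libraries, as do those with GH share the Sham_GH libraries. The median log2 change of the 10 genes was 0.26 at day 3 and 0.17 at day 10, against medians of -0.01 and -0.01 over all genes tested.

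*Atf3* encodes an injury-induced transcription factor of the ATF family that pairs with JUN (chr1:191170296-191218039, minus strand, GRCm38, ENSMUSG00000026628). Its level was 18.7, 22.3 and 16.2 FPKM in the PEL_3d libraries, 10.2, 5.01 and 9.01 FPKM in PEL_10d, and 0.367 and 0.808 FPKM in Sham 2 and Sham 3. Every lesioned library was above both Sham libraries, and every PEL_3d library was above every PEL_10d library. The log2 change was 4.97 at day 3 (SE 0.254, 95% interval 4.40 to 5.53, edgeR adjusted p 2.697e-07), a 31.3-fold rise. At day 10 it was 3.74 (SE 0.410, edgeR adjusted p 0.001499), a 13.3-fold rise. The library labelled Sham 1, not in these fits, had 0.790 FPKM. From day 3 to day 10 the level fell by 1.22 on the log2 scale (SE 0.224, edgeR adjusted p 0.005712). All 3 calls held under each of the 11 alternatives tried for each comparison, over which the change ran from 4.53 to 5.63 at day 3, from 3.29 to 4.41 at day 10 and from -1.42 to -0.97 between the days.

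*Jun* encodes the transcription factor that JNK phosphorylates (chr4:95049034-95052222, minus strand, GRCm38, ENSMUSG00000052684). It had 23.3, 21.4 and 23.5 FPKM in PEL_3d, 18.9, 18.2 and 21.1 FPKM in PEL_10d, and 15.2 and 17.6 FPKM in Sham 2 and Sham 3. Both lesioned groups lay above these Sham libraries without overlap, and the library labelled Sham 1 was at 20.3 FPKM. The log2 change was 0.45 at day 3 (SE 0.086, edgeR adjusted p 0.00198) and 0.22 at day 10 (SE 0.097, edgeR adjusted p 0.1973). With Sham 1 in the fit, the change at day 3 was 0.32 (edgeR adjusted p 0.214) and was not called, and at day 10 it was 0.09 (edgeR adjusted p 0.912). The difference between day 10 and day 3 was -0.22 (edgeR adjusted p 0.08162); it was called without PEL_10d 3, at -0.30 (edgeR adjusted p 0.0348), and with a replicate block (adjusted p 0.0417).

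*Klf6* encodes a zinc-finger factor that promotes axon growth in model neurons (chr13:5861482-5870394, plus strand, GRCm38, ENSMUSG00000000078). Its level was 17.1, 16.2 and 15.6 FPKM in PEL_3d, 12.4, 13.0 and 14.1 FPKM in PEL_10d, and 11.5 and 11.7 FPKM in Sham 2 and Sham 3. The groups lay in that order without overlap, and the library labelled Sham 1 was below all of them at 7.79 FPKM. The log2 change was 0.50 at day 3 (SE 0.077, edgeR adjusted p 0.0005563) and 0.19 at day 10 (SE 0.083, edgeR adjusted p 0.2126). Between day 3 and day 10 it fell by 0.305 (SE 0.072, edgeR adjusted p 0.01946), and that call was lost without PEL_3d 1 (adjusted p 0.0771) or without PEL_10d 2 (adjusted p 0.0746).

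*Sox11* encodes a transcription factor of developing neurons that is induced again in injured sensory neurons (chr12:27334264-27342574, minus strand, GRCm38, ENSMUSG00000063632). It had 3.31, 3.81 and 3.23 FPKM in PEL_3d, 2.41, 2.45 and 2.30 FPKM in PEL_10d, and 2.84 and 3.10 FPKM in Sham 2 and Sham 3. The PEL_3d libraries were above both Sham libraries and the PEL_10d libraries below both, although the library labelled Sham 1, at 1.78 FPKM, was lower than all of these. Neither change against Sham was called, with a log2 change of 0.20 at day 3 (SE 0.109, edgeR adjusted p 0.1748) and -0.34 at day 10 (SE 0.097, edgeR adjusted p 0.06636). With Sham 1 in the fit, the changes in *Sox11* were 0.40 and -0.14, neither called. The difference between the days was called, at -0.53 (SE 0.094, edgeR adjusted p 0.005139).

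*Sprr1a* encodes a small proline-rich protein of the cornified envelope of skin that injured neurons also make and that promotes neurite outgrowth (chr3:92483952-92485895, minus strand, GRCm38, ENSMUSG00000050359). Its level was 38.6, 36.1 and 24.9 FPKM in PEL_3d, from 507, 456 and 322 counts. In PEL_10d it was 3.61, 3.87 and 3.87 FPKM, from 46, 52 and 48 counts. Sham 2 and Sham 3 had 0.164 and 0.398 FPKM, from 2 and 5 counts, and the library labelled Sham 1 had 0.162 FPKM from 2 counts. All 6 lesioned libraries were above every Sham library, and the PEL_3d and PEL_10d libraries did not overlap. From the summed counts relative to library size, the level was 116 times that of Sham at day 3 (95% interval 56.0 to 288) and 13.2 times at day 10 (95% interval 6.24 to 33.4), intervals that cover counting error only. The fit gave log2 changes of 6.81 (edgeR adjusted p 3.272e-07) and 3.68 (edgeR adjusted p 0.001884), which depend on the prior count because Sham has so few counts. From day 3 to day 10 the level fell by 3.12 on the log2 scale (SE 0.185, edgeR adjusted p 1.143e-05), to 0.115 of its value at day 3. These 3 calls held under each of the 11 alternatives tried for each.

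*Gap43*, which encodes a protein of the growth cone membrane (chr16:42248442-42340651, minus strand, GRCm38, ENSMUSG00000047261), was at a high level in every hypothalamic group. It had 219, 257 and 221 FPKM in PEL_3d, 231, 241 and 219 FPKM in PEL_10d, and 261 and 278 FPKM in Sham 2 and Sham 3. All 6 lesioned libraries were below these Sham libraries, by a small margin, and the library labelled Sham 1 was at 38.8 FPKM. The log2 change was -0.23 at day 3 (SE 0.083, edgeR adjusted p 0.0447) and -0.25 at day 10 (SE 0.068, edgeR adjusted p 0.05285; 0.0104 by DESeq2, past the threshold). Between the days it differed by -0.01, and by 0.07 and 0.02 without PEL_3d 2 or PEL_10d 3. The call at day 3 was lost when PEL_3d 1, PEL_3d 3, Sham 2 or Sham 3 was left out, with adjusted p of 0.136, 0.123, 0.132 and 0.239. It was also lost in 1 fit over all hypothalamic groups (adjusted p 0.0706) and with a replicate block (-0.19, adjusted p 0.0956), although same-numbered libraries share only a number. With Sham 1 in the fit the sign turned, to 0.26 at day 3 and 0.24 at day 10 (edgeR adjusted p 0.858 and 0.953).

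*Stmn2* encodes stathmin 2, a tubulin-binding protein of growing axons (chr3:8509360-8561606, plus strand, GRCm38, ENSMUSG00000027500). It had 174, 205 and 175 FPKM in PEL_3d, 171, 179 and 183 FPKM in PEL_10d, and 206 and 194 FPKM in Sham 2 and Sham 3. The PEL_3d libraries overlapped with Sham, and the PEL_10d libraries lay below it. Neither change was called, at -0.13 on day 3 (edgeR adjusted p 0.2523) and -0.19 on day 10 (edgeR adjusted p 0.1238). The change at day 3 was called without PEL_3d 2, at -0.20 (edgeR adjusted p 0.0232), and turned to 0.03 with Sham 1 (134 FPKM) in the fit (edgeR adjusted p 0.939), while the change at day 10 was then -0.04 (edgeR adjusted p 0.968).

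*Ecel1* encodes a membrane endopeptidase that is induced in neurons by nerve injury (chr1:87147655-87156521, minus strand, GRCm38, ENSMUSG00000026247). It had 35.0, 35.6 and 34.0 FPKM in PEL_3d, 52.3, 45.7 and 32.5 FPKM in PEL_10d, and 43.7 and 45.3 FPKM in Sham 2 and Sham 3. The PEL_3d libraries lay close together and below Sham, while the PEL_10d libraries spread on both sides of it. The log2 change was -0.37 at day 3 (SE 0.067, edgeR adjusted p 0.001657) and -0.05 at day 10 (edgeR adjusted p 0.8955). The call at day 3 held when any of its 5 libraries was left out, and was lost in 1 fit over all hypothalamic groups (-0.36, adjusted p 0.164). With Sham 1 (2.37 FPKM) in the fit the change was 0.19 at day 3 (edgeR adjusted p 0.925). Between day 10 and day 3 the change was 0.33 (edgeR adjusted p 0.1394), and without PEL_10d 3 it was called, at 0.50 (edgeR adjusted p 0.00332). Over the 11 alternatives this difference between the days ran from 0.19 to 0.50, and 1 of them was past the threshold. Without PEL_10d 3 the change against Sham was 0.13 at day 10.

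*Ddit3* encodes CHOP, a transcription factor of the integrated stress response (chr10:127290774-127296288, plus strand, GRCm38, ENSMUSG00000025408). It had 13.3, 15.3 and 12.3 FPKM in PEL_3d, 14.7, 18.2 and 17.5 FPKM in PEL_10d, and 16.7 and 13.4 FPKM in Sham 2 and Sham 3. The groups overlapped, and no change was called (-0.12 at day 3 and 0.15 at day 10, edgeR adjusted p 0.5695 and 0.5916), which does not show that the levels were alike. Its sign turned without Sham 2 at day 3 (0.06) and without Sham 3 at day 10 (-0.01). The locus overlaps *Mars* on the other strand and the second *Ddit3* entry on its own strand, whose counts were under 2 in every library, and the use of strand in counting is not given in the sources used here, so its level is uncertain.

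*Gadd45a* encodes a growth arrest protein induced by DNA damage (chr6:67035096-67037457, minus strand, GRCm38, ENSMUSG00000036390). It had 5.16, 6.20 and 5.75 FPKM in PEL_3d, 9.53, 5.25 and 6.53 FPKM in PEL_10d, and 3.74 and 5.30 FPKM in Sham 2 and Sham 3. PEL_10d 1 was the highest hypothalamic library of all, and each lesioned group overlapped with Sham. The library labelled Sham 1 was at 2.83 FPKM. The log2 change was 0.32 at day 3 (SE 0.207, edgeR adjusted p 0.2509) and 0.63 at day 10 (SE 0.272, edgeR adjusted p 0.196). Over the 11 alternatives it ran from 0.10 to 0.58 at day 3 and from 0.37 to 0.89 at day 10, and none was past the threshold.

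**Figure D1:**
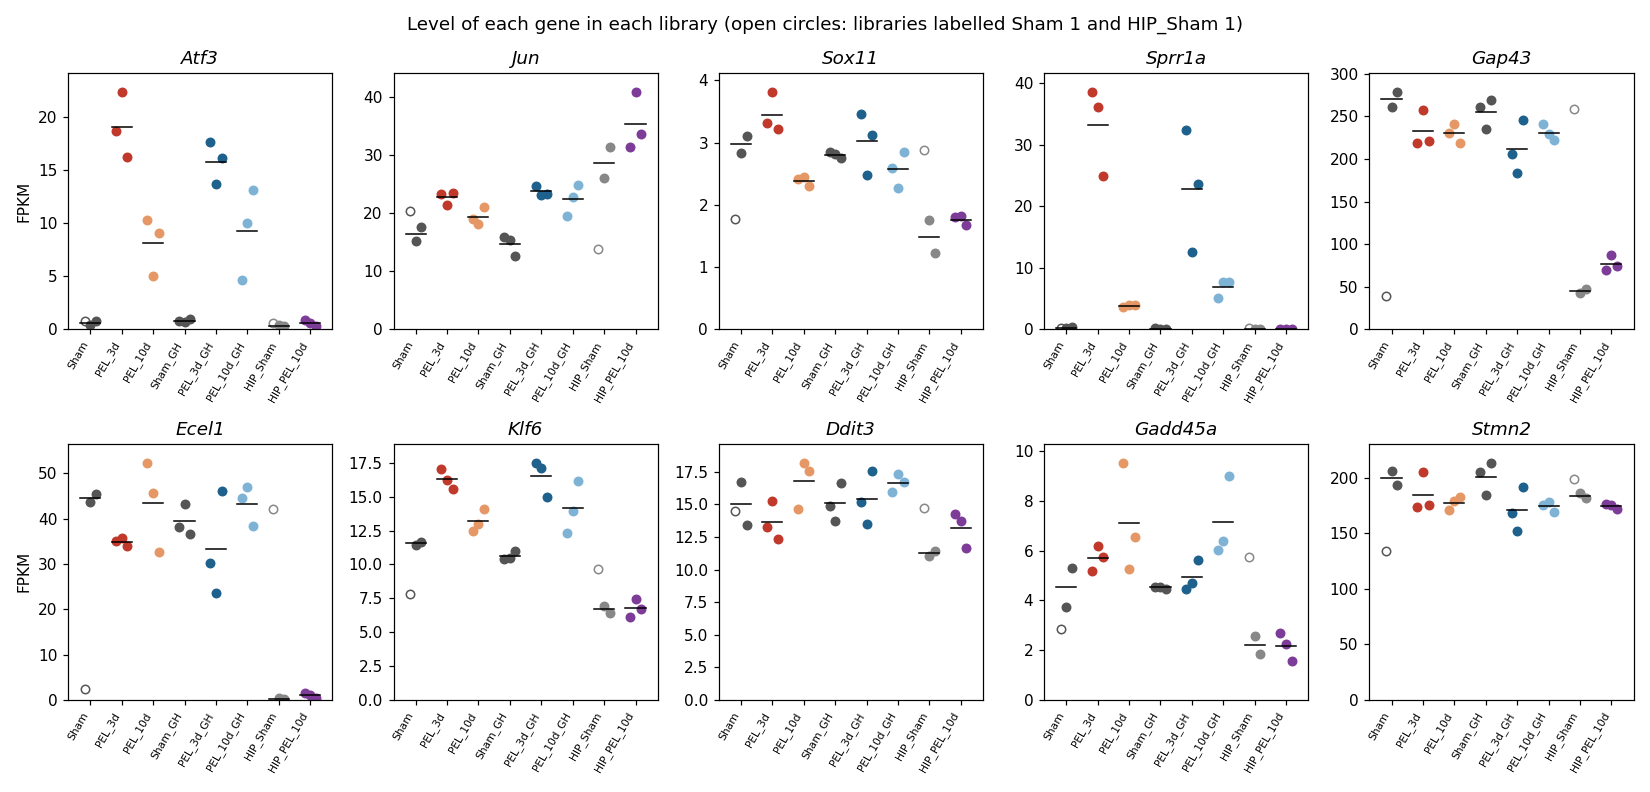
Level of each of the 10 genes in FPKM (vertical axes, which differ between panels) in each of the 24 libraries, by group (horizontal axes); lines mark group means without the libraries labelled Sham 1 and HIP_Sham 1, which are open circles. *Atf3* was between 16.2 and 22.3 FPKM in PEL_3d and under 1 FPKM in all libraries of Sham, Sham_GH and both hippocampal groups.

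In PEL_10d against PEL_3d, 4 of the 10 genes were called, where 18.5% of 14807 genes were called: *Atf3*, *Sox11*, *Sprr1a* and *Klf6*, all lower at day 10. The levels of all 4 did not overlap between the days, but how many of all genes tested did so was not counted. With GH, 1 of the 10 was called in PEL_10d_GH against PEL_3d_GH, where 15.6% of 14838 genes were called. That gene was *Sprr1a*, with 32.3, 12.5 and 23.7 FPKM in PEL_3d_GH and 5.12, 7.68 and 7.61 FPKM in PEL_10d_GH. The groups did not overlap, and the level fell by 1.76 on the log2 scale (SE 0.325, edgeR adjusted p 0.008861). *Atf3* had 17.6, 13.6 and 16.1 FPKM in PEL_3d_GH and 4.62, 9.97 and 13.1 FPKM in PEL_10d_GH, also without overlap, with a log2 change of -0.78 that was not called (edgeR adjusted p 0.1029). Without PEL_10d_GH 3, the highest of its group, the change in *Atf3* was called (-1.12, adjusted p 0.0425), as it was in 1 fit over all hypothalamic groups (-0.78, adjusted p 0.0484). Over the 11 alternatives the change in *Atf3* ran from -1.12 to -0.46, and 2 of them were past the threshold. With all libraries *Gadd45a* differed by 0.52 (edgeR adjusted p 0.09291), and over the 11 alternatives by 0.33 to 0.63. Without PEL_3d_GH 3, 4 of the 10 were called, *Gadd45a* among them (0.63, adjusted p 0.0492), and 4435 genes in all, against 2315 with it. The number of genes called was 704 without PEL_3d_GH 1, 1068 without PEL_3d_GH 2, 1169 without PEL_10d_GH 1 and 967 without PEL_10d_GH 2. Without GH, it was 1629 without PEL_3d 1, 1333 without PEL_3d 3 and 1478 without PEL_10d 2, against 2742 with all.

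Among the mice given GH, *Atf3*, *Jun* and *Klf6* were called higher than in Sham_GH at both days. *Atf3* had 0.743, 0.693 and 0.968 FPKM in Sham_GH, far below every lesioned library, with log2 changes of 4.26 at day 3 (SE 0.166, edgeR adjusted p 1.335e-07) and 3.49 at day 10 (SE 0.376, edgeR adjusted p 0.0001215). *Jun* had 24.7, 23.2 and 23.4 FPKM in PEL_3d_GH, 19.5, 22.8 and 24.9 FPKM in PEL_10d_GH, and 16.0, 15.4 and 12.7 FPKM in Sham_GH. Both lesion groups were above Sham_GH without overlap, by 0.67 at day 3 (edgeR adjusted p 0.0001681) and 0.59 at day 10 (edgeR adjusted p 0.002508). *Klf6* had 17.5, 17.1 and 14.96 FPKM, then 12.3, 14.0 and 16.2 FPKM, against 10.4, 10.5 and 11.0 FPKM in Sham_GH. It was above Sham_GH in every lesioned library, by 0.63 at day 3 (edgeR adjusted p 0.0001905) and 0.43 at day 10 (edgeR adjusted p 0.007412). *Sox11* was between 2.27 and 3.46 FPKM in these libraries, and its groups overlapped (0.08 at day 3 and -0.15 at day 10, neither called). Without PEL_3d_GH 1, its change at day 3 was -0.02.

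*Sprr1a* had 0.238, 0 and 0.0770 FPKM in Sham_GH, from 3, 0 and 1 counts, and every lesioned library was above them. The level in PEL_3d_GH was 224 times that of Sham_GH (95% counting interval 87.1 to 823) and in PEL_10d_GH 66.3 times (95% counting interval 25.6 to 245), both called (edgeR adjusted p 5.56e-06 and 2.36e-05). Sham_GH 1 holds 3 of the 4 Sham_GH counts, and over the alternatives the fitted log2 change ran from 7.09 to 8.92 at day 3 and from 5.34 to 7.18 at day 10, around 7.67 and 5.93. *Gap43* had 206, 184 and 245 FPKM in PEL_3d_GH, 242, 229 and 222 FPKM in PEL_10d_GH, and 261, 235 and 269 FPKM in Sham_GH. *Stmn2* had 168, 152 and 192 FPKM, then 176, 178 and 169 FPKM, against 206, 184 and 214 FPKM in Sham_GH. For both genes PEL_3d_GH 3 reached into the range of Sham_GH. At day 3 both were called lower, *Gap43* by a log2 change of -0.29 (edgeR adjusted p 0.03485) and *Stmn2* by -0.26 (edgeR adjusted p 0.03749). Those calls were lost without PEL_3d_GH 1, PEL_3d_GH 2, Sham_GH 1 or Sham_GH 3, with adjusted p from 0.0978 to 0.14 for *Gap43* and from 0.0995 to 0.156 for *Stmn2*. At day 10 *Stmn2* was called lower (-0.23, edgeR adjusted p 0.02688) and lost its call without PEL_10d_GH 3, Sham_GH 1 or Sham_GH 3 (adjusted p 0.0652, 0.1 and 0.0933). PEL_10d_GH 3 had an anterior pituitary marker sum of 76.8 FPKM, against 9.29 and 26.3 FPKM in the other 2 libraries of its group. *Gap43* was not called at day 10 (-0.17, edgeR adjusted p 0.08438) but was without PEL_10d_GH 1 or Sham_GH 2 (adjusted p 0.0447 and 0.0434), and by DESeq2 (adjusted p 0.0422).

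*Gadd45a* had 6.02, 6.40 and 8.99 FPKM in PEL_10d_GH, 4.47, 4.71 and 5.63 FPKM in PEL_3d_GH, and 4.55, 4.54 and 4.46 FPKM in Sham_GH. The PEL_10d_GH libraries were above all others in this set, and the rise at day 10 was called, at 0.64 (SE 0.172, edgeR adjusted p 0.0185). It lost its call without PEL_10d_GH 3 (0.44, adjusted p 0.0781), a library with 5479 FPKM of *Pomc* where the other 2 had 24.2 and 30.2 FPKM, and without Sham_GH 1, 2 or 3 (adjusted p 0.0585, 0.0548 and 0.0557). *Ecel1* had 30.3, 23.5 and 46.0 FPKM in PEL_3d_GH, 44.6, 46.9 and 38.4 FPKM in PEL_10d_GH, and 38.2, 43.2 and 36.7 FPKM in Sham_GH. PEL_3d_GH 3 stood above the other libraries of its group. With it the change in *Ecel1* at day 3 was -0.26 (edgeR adjusted p 0.2812), and without it -0.55 (edgeR adjusted p 0.000548). Over the 11 alternatives that change ran from -0.55 to -0.06, and 1 of them was past the threshold. *Ddit3* was between 13.5 and 17.6 FPKM in these libraries and was not called at either day. Its change at day 3 was -0.01, and it was 0.02, 0.05 and 0.08 without PEL_3d_GH 1, PEL_3d_GH 2 or Sham_GH 3.

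**Figure D2:**
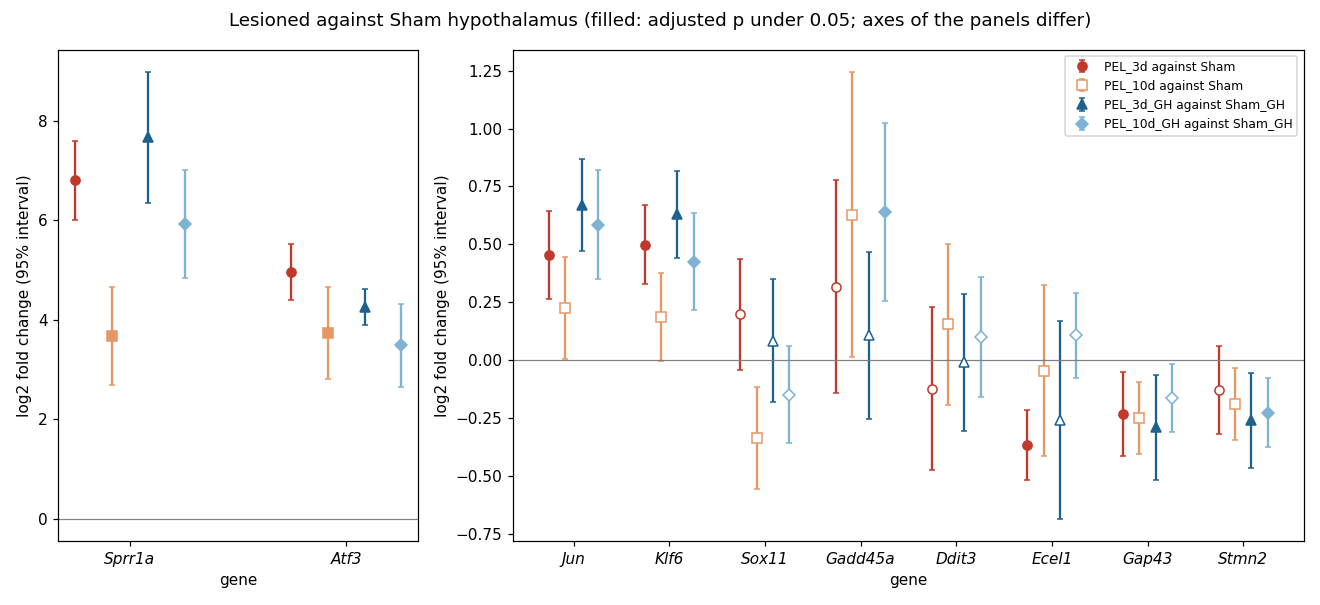
Log2 fold change of each of the 10 genes (horizontal axes) against the Sham group with the same GH treatment, with 95% intervals; filled symbols have an edgeR adjusted p under 0.05, and the vertical axes of the panels differ. *Sprr1a* and *Atf3* (left) were at 3.49 or more in all 4 comparisons, and the other 8 genes (right) were between -0.37 and 0.67.

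Whether GH changed these genes was compared at each stage. In PEL_3d_GH against PEL_3d, 0 of the 10 genes were called, with 0.027% of 14798 genes called; edgeR gave 1006 genes and 0 of the 10 an unadjusted p under 0.05, and DESeq2 called 57 genes and 0 of the 10. In PEL_10d_GH against PEL_10d, 0 of the 10 and 0% of 14763 genes were called by edgeR, which gave 906 genes and 1 of the 10 an unadjusted p under 0.05, while DESeq2 called 41 genes and 0 of the 10. That 1 gene was *Sprr1a*, whose PEL_10d_GH libraries were all above the PEL_10d libraries, at 1.80 times the level (95% counting interval 1.47 to 2.22; log2 change 0.85, SE 0.212, edgeR adjusted p 0.6224). *Atf3* differed by -0.25 at day 3 (SE 0.136) and by 0.19 at day 10 (SE 0.362), with overlapping groups, and its sign at day 10 turned without PEL_10d 2 (-0.06) or PEL_10d_GH 3 (-0.15). *Gadd45a* differed by 0.02 at day 10, and by -0.16, -0.03 and -0.18 without PEL_10d 2, PEL_10d 3 or PEL_10d_GH 3. In Sham_GH against Sham, 9 of the 10 genes passed the filter on low counts (*Sprr1a* did not) and 0 were called, where 1.09% of 14539 genes were called; 1 of the 9 and 2187 genes had an unadjusted p under 0.05 by edgeR, and DESeq2 called 0 of the 9 and 262 genes. That member of the 9 was *Ecel1*, at -0.16 (edgeR adjusted p 0.2905) and at 0.38 with Sham 1 in the fit.

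The difference between the lesion effect with GH and without it was tested as well. At day 3, 0 of the 10 genes were called by edgeR, where 0.0462% of 15164 genes were called, with 1595 genes and 0 of the 10 at an unadjusted p under 0.05, and 148 genes and 0 of the 10 called by DESeq2. At day 10, 0 of the 10 and 0% of 15116 genes were called by edgeR, with 1366 genes and 2 of the 10 at an unadjusted p under 0.05, and 97 genes and 0 of the 10 called by DESeq2. Those 2 were *Sprr1a*, with a difference of 2.24 (SE 0.898, edgeR adjusted p 0.4859), and *Jun*, with 0.36 (SE 0.158, edgeR adjusted p 0.5335). For *Atf3* the difference was -0.71 at day 3 (SE 0.379, edgeR adjusted p 0.5505) and -0.25 at day 10 (SE 0.703, edgeR adjusted p 0.9488). A p that misses the threshold does not show that the effects were alike.

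In the hippocampus, *Sprr1a* had 0 counts in all 3 HIP_PEL_10d libraries and in HIP_Sham 2 and HIP_Sham 3, and 2 counts (0.163 FPKM) in the library labelled HIP_Sham 1. *Atf3* had 0.917, 0.584 and 0.288 FPKM in HIP_PEL_10d and 0.597, 0.362 and 0.281 FPKM in HIP_Sham, and the groups overlapped. Of the 10 genes, 9 were tested in HIP_PEL_10d against HIP_Sham, and 0 were called, where 0% of 14039 genes were called by edgeR; 0 of the 9 and 1434 genes had an unadjusted p under 0.05, and DESeq2 called 0 of the 9 and 200 genes. *Jun* had 31.3, 40.8 and 33.7 FPKM in HIP_PEL_10d and 13.8, 26.0 and 31.3 FPKM in HIP_Sham, a log2 change of 0.59 (SE 0.350, edgeR adjusted p 0.5855). HIP_Sham 1 was the lowest of these libraries, and without it the change in *Jun* was 0.28 (edgeR adjusted p 0.209).

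The library labelled HIP_Sham 1 decided the hippocampal values of *Gap43* and *Ecel1*. *Gap43* had 69.7, 86.8 and 74.6 FPKM in HIP_PEL_10d and 259, 43.1 and 46.8 FPKM in HIP_Sham. The lesioned libraries lay above HIP_Sham 2 and HIP_Sham 3 and below HIP_Sham 1. With all libraries the log2 change was -0.46 (SE 0.662, edgeR adjusted p 0.7996); without HIP_Sham 1 it was 0.76 (edgeR adjusted p 0.00571), 1 of the 10 genes was called, and 873 genes were called in all. *Ecel1* had 1.60, 0.996 and 0.403 FPKM in HIP_PEL_10d and 42.1, 0.339 and 0.243 FPKM in HIP_Sham, with changes of -3.66 and, without HIP_Sham 1, 1.84 (edgeR adjusted p 0.55 and 0.105). *Gadd45a* had 2.67, 2.23 and 1.56 FPKM against 5.76, 2.58 and 1.85 FPKM, with changes of -0.54 and, without HIP_Sham 1, 0. With all libraries, *Klf6*, *Sox11*, *Ddit3* and *Stmn2* had log2 changes between -0.14 and 0.17, and none was called. *Klf6* had 6.15, 7.44 and 6.71 FPKM against 9.64, 6.95 and 6.40 FPKM in HIP_Sham, and *Sox11* had 1.80, 1.82 and 1.67 FPKM against 2.87, 1.76 and 1.22 FPKM. *Ddit3* had 14.2, 13.8 and 11.6 FPKM against 14.7, 11.1 and 11.4 FPKM, and *Stmn2* had 177, 176 and 172 FPKM against 199, 186 and 182 FPKM. For all 4 genes HIP_Sham 1 was the highest library. Without it the groups overlapped for *Klf6* and *Sox11*, while all HIP_PEL_10d libraries were above HIP_Sham 2 and HIP_Sham 3 for *Ddit3* and below them for *Stmn2*. Beside these values, the 10 choroid plexus markers (most abundant *Ttr*) summed to 259, 110 and 945 FPKM in HIP_PEL_10d and to 91.2, 5248 and 6552 FPKM in HIP_Sham; their part in these values was not tested.

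The difference between the effects of the lesion at day 10 in the hypothalamus and in the hippocampus was called for 0 of the 10 genes by edgeR, where 1.88% of 15093 genes were called; 2 of the 10 and 2244 genes had an unadjusted p under 0.05, and DESeq2 called 2 of the 10 and 811 genes. Both times they were *Atf3* and *Sprr1a*. For *Atf3* the difference was 3.16 (SE 0.721, edgeR adjusted p 0.06039), and 3.12 by DESeq2 (adjusted p 0.00165). For *Sprr1a* it was 6.40 (SE 1.92, edgeR adjusted p 0.1717), and 5.55 by DESeq2 (adjusted p 0.0403), a fitted value that depends on the prior count. Over 6 alternatives it ran from 3.64, without HIP_Sham 1 (adjusted p 1), to 6.55, and 1 of the 6 was past the threshold. The only 2 counts of *Sprr1a* in the HIP_PEL_10d and HIP_Sham groups are in the library labelled HIP_Sham 1, which had 139 FPKM of *Avp*. Without HIP_Sham 1, 2 of the 10 genes were called by edgeR, where 1616 genes were called in place of 284. *Atf3* was then at 2.83 (adjusted p 0.0433) and *Gap43* at -1.04 (adjusted p 0.000793), against 0.21 with it. *Ecel1* was at 3.62 with that library and at -1.92 without it (edgeR adjusted p 0.4758 and 0.0838).

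The 10 genes belong to larger groups, and lists of those groups were compared in the same fits. Over all genes tested, 22.3% were higher and 18.2% lower at day 3 against Sham, and 7.98% and 1.44% at day 10. With GH, 26.9% were higher and 25.1% lower at day 3 against Sham_GH, and 17.7% and 13.3% at day 10. Of 17 AP-1 and ATF factors tested at day 3 against Sham, 6 were called higher and 3 lower, with a median log2 change of 0.24 against -0.01 over all genes. The AP-1 factor *Fosl1* had 0.524, 0.358 and 0.397 FPKM in PEL_3d and 0 FPKM in Sham 2 and Sham 3, while *Fosb* fell by 1.501 (edgeR adjusted p 0.005991) and *Fos*, an immediate early gene, by 0.85 (edgeR adjusted p 0.01325). *Batf*, a partner of JUN in leukocytes, had 23, 23 and 25 counts against 4 and 3, and *Maff* rose by 1.27 (edgeR adjusted p 0.005972). *Atf5* rose by 0.53 (edgeR adjusted p 0.01032) and *Atf2* fell by 0.35 (edgeR adjusted p 0.004491), while *Junb*, *Jund*, *Fosl2*, *Atf4* and *Atf6* were not called. At day 10, 1 of 16 was higher (*Atf3*) and 1 lower (*Fosb*), with a median of 0.04. With GH, 6 of 16 were higher and 2 lower at day 3, and 7 higher and 1 lower at day 10, with medians of 0.22 and 0.28.

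Of 18 injury-induced transcription factors, 10 were higher and 1 lower at day 3 (median 0.48), and 1 was higher and 0 lower at day 10 (median 0.15). *Cebpd* and *Cebpb*, factors of the acute phase response, rose by 2.11 and 1.38 at day 3 (edgeR adjusted p 5.011e-06 and 0.001688), and *Stat3*, the effector of IL-6 type cytokines, by 0.92 (edgeR adjusted p 3.395e-05). *Egr1* fell by 1.06 (edgeR adjusted p 0.004679). From day 3 to day 10, 0 of the 18 rose and 9 fell, *Cebpd* by 1.38 (edgeR adjusted p 0.0001805). With GH, 11 were higher and 1 lower at day 3, and 7 higher and 0 lower at day 10 (medians 0.64 and 0.35). Of 13 KLF genes, 3 were higher and 2 lower at day 3 (median -0.13), and 1 was higher and 0 lower at day 10 (median 0.01). Beside *Klf6*, *Klf10* rose by 0.98 and *Klf3* by 0.68 at day 3 (edgeR adjusted p 0.0006988 and 0.0003331), *Klf9* fell by 0.60 and *Klf12* by 0.25 (edgeR adjusted p 0.0005016 and 0.04971), and at day 10 *Klf3* was higher by 0.50 (edgeR adjusted p 0.0324). With GH, 4 were higher and 6 lower at day 3, and 3 higher and 1 lower at day 10 (medians -0.19 and 0.03).

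Of 28 growth cone and cytoskeleton genes, 10 were higher and 8 lower at day 3 (median -0.06), and 3 were higher and 3 lower at day 10 (median -0.10). The largest rises after *Sprr1a* at day 3 were in *Tubb6*, a tubulin (2.50, edgeR adjusted p 2.19e-06), *Tnfrsf12a*, the receptor of TWEAK (2.15, edgeR adjusted p 5.577e-06), *Anxa2*, a membrane-binding annexin (2.08, edgeR adjusted p 1.018e-07), and *Itga7*, an integrin (1.59, edgeR adjusted p 2.026e-06). The level of *Tubb6* was 26.5, 18.8 and 27.5 FPKM in PEL_3d, 6.70, 3.99 and 6.10 FPKM in PEL_10d, and 4.18 and 4.27 FPKM in Sham. Of the stathmin family, *Stmn1*, *Stmn3* and *Stmn4* had log2 changes of -0.08, -0.14 and -0.23 at day 3, none called. With GH, 10 were higher and 13 lower at day 3, and 6 higher and 11 lower at day 10 (medians -0.17 and -0.15), *Stmn3* among those lower on both days (-0.30 and -0.23, edgeR adjusted p 0.04146 and 0.01271).

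Of 25 injury-induced peptides, receptors and enzymes, 14 were higher and 2 lower at day 3 (median 0.47), and of 22 at day 10, 7 were higher and 0 lower (median 0.11). *Gal*, the peptide galanin, had 155, 215 and 142 FPKM in PEL_3d, 33.3, 39.1 and 31.8 FPKM in PEL_10d, and 42.6 and 39.1 FPKM in Sham 2 and Sham 3. Its PEL_3d libraries were above all the others, a rise of 2.04 (edgeR adjusted p 6.401e-06), and it was not called at day 10 (-0.25). *Plaur*, the urokinase receptor, had 7.203, 3.72 and 6.86 FPKM in PEL_3d, 3.62, 1.20 and 2.16 FPKM in PEL_10d, and 0.0910 and 0.0880 FPKM in Sham 2 and Sham 3. *Osmr*, the oncostatin M receptor, rose by 2.80 at day 3 and 1.85 at day 10 (edgeR adjusted p 1.021e-07 and 0.002888), and *Cntf*, a neurotrophic cytokine, by 1.71 and 1.72 (edgeR adjusted p 0.002153 and 0.007985). *Gpr151*, a receptor of habenular neurons, had 1.80, 3.56 and 1.26 FPKM in PEL_3d and 0.187 and 0.181 FPKM in Sham 2 and Sham 3. With GH, 12 of 25 were higher and 3 lower at day 3, and 8 of 23 higher and 3 lower at day 10 (medians 0.60 and 0.11).

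Of 24 genes of the integrated stress response, the pathway of *Ddit3*, 8 were higher and 1 lower at day 3 (median 0.12), and 1 was higher and 0 lower at day 10 (median 0.13). *Psat1*, an enzyme of serine synthesis, rose by 0.70 at day 3 (edgeR adjusted p 1.765e-05) and *Slc3a2*, an amino acid transporter subunit, by 0.57 (edgeR adjusted p 0.001005). The gene called at day 10 was *Slc7a11*, the cystine transporter, at 0.75 (edgeR adjusted p 0.00406). With GH, 9 were higher and 2 lower at day 3, and 9 higher and 1 lower at day 10 (medians 0.23 and 0.07). Of 19 growth arrest genes and p53 targets, the group of *Gadd45a*, 8 were higher and 1 lower at day 3 (median 0.32), and 2 were higher and 0 lower at day 10 (median 0.19). *Eda2r*, a death receptor, rose by 3.36, *Pmaip1* (NOXA) by 2.51 and *Cdkn1a*, the cell cycle inhibitor p21, by 1.51 at day 3 (edgeR adjusted p 5.788e-05, 0.0001555 and 1.454e-05). *Gadd45b* rose by 0.68 at day 3 and 0.91 at day 10 (edgeR adjusted p 0.03561 and 0.02681), while *Gadd45g* was not called (0.23 and 0.04). With GH, 9 were higher and 1 lower at day 3, and 8 higher and 0 lower at day 10 (medians 0.21 and 0.30).

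Of 18 genes of the DLK and JNK cascade and of axon degeneration, 0 were higher and 13 lower at day 3 (median -0.34), where 18.2% of all genes and 12 of 13 neuron markers (median -0.32) were lower, and 0 were higher and 1 lower at day 10 (median -0.12). *Map3k12*, which encodes DLK, fell by 0.33 and *Map3k13*, which encodes its relative LZK, by 0.49 at day 3 (edgeR adjusted p 0.006592 and 0.003714). *Map2k4*, a kinase of JNK, fell by 0.44 at day 3 and 0.27 at day 10 (edgeR adjusted p 0.001129 and 0.04512), and *Nmnat2*, an axon survival factor, by 0.42 at day 3 (edgeR adjusted p 0.002466). From day 3 to day 10, 6 rose and 0 fell (median 0.21). With GH, 0 were higher and 13 lower at day 3, and 2 higher and 10 lower at day 10 (medians -0.44 and -0.22).

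From day 3 to day 10 without GH, 6.33% of all genes tested rose and 12.2% fell. Of the AP-1 and ATF factors 0 rose and 3 fell, of the KLF genes 4 rose and 2 fell, and of the growth cone genes 2 rose and 11 fell. Of the peptides, receptors and enzymes 1 rose and 8 fell, of the integrated stress response 2 rose and 3 fell, and of the growth arrest genes and p53 targets 0 rose and 7 fell. In both comparisons of lesioned mice with and without GH, and in HIP_PEL_10d against HIP_Sham with all libraries, 0 genes of any of these lists were called by edgeR. Without HIP_Sham 1, 873 genes were called in the hippocampus, and *Gap43* of the growth cone list was among them (0.76, adjusted p 0.00571). In Sham_GH against Sham, *Fos*, *Id2* and *Btg2* were called lower and *Klf9*, *Klf13*, *Klf15*, *Cck*, *Adcyap1*, *Slc7a5* and *Herpud1* higher, and among the markers *Cldn5* lower. The 159 genes called in that comparison became 44 without Sham_GH 1, 13 in 1 fit over all hypothalamic groups and 0 with Sham 1 in the fit.

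Markers of other cells also differed between lesioned and Sham hypothalamus. In PEL_3d against Sham, 15 of 15 markers of microglia and macrophages were called higher, with a median log2 change of 3.16, and at day 10, 12 of 15 (median 2.11). Their summed level was 3086, 2282 and 4720 FPKM in PEL_3d, 1406, 585 and 1492 FPKM in PEL_10d, and 166 and 168 FPKM in Sham 2 and Sham 3. With GH the sum was 7879, 7741 and 4246 FPKM at day 3, 909, 1391 and 1839 FPKM at day 10, and 133, 167 and 122 FPKM in Sham_GH. In HIP_PEL_10d and HIP_Sham the sum was between 134 and 203 FPKM. The most abundant of these markers was *Spp1* (osteopontin), and none was under 0.5 FPKM in all 17 hypothalamic libraries other than Sham 1. What part these cells had in the change of *Atf3*, *Sprr1a* or any other gene here was not tested.

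Markers of neurons moved the other way, 12 of 13 called lower at day 3 (median -0.32) and 2 of 13 at day 10 (median -0.14). Their sum was 1683, 1779 and 1612 FPKM in PEL_3d, 1770, 1965 and 1881 FPKM in PEL_10d, and 2127 and 2067 FPKM in Sham 2 and Sham 3, with *Snap25* the most abundant. Every lesioned library was below both Sham libraries, as for *Gap43*. Of the hypothalamus markers (most abundant *Pmch*), 1 of 17 was higher and 10 lower at day 3 and 3 lower at day 10, with *Avp* at -2.76 and *Oxt* (oxytocin) at -1.43 at day 3, and -1.38 and -2.17 at day 10. With GH, 11 of the 13 neuron markers were lower at day 3 (median -0.58) and 10 at day 10 (median -0.30). In these bulk samples, fewer cells of a type and less RNA per cell cannot be told apart.

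Among the other marker lists at day 3 against Sham, 6 of 8 astrocyte markers were higher and 2 lower, 2 of 8 oligodendrocyte markers higher, 6 of 7 fibroblast and meninges markers higher, 5 of 6 endothelial markers higher and 2 of 5 Schwann cell markers higher. The astrocyte sum, led by *Gfap*, was 1795, 1638 and 1727 FPKM in PEL_3d and 669 and 712 FPKM in Sham 2 and Sham 3. The fibroblast sum, led by *Dcn*, was 254, 141 and 281 FPKM in PEL_3d and 73.8 and 73.4 FPKM in Sham 2 and Sham 3. At day 10, 4 of 8 astrocyte, 4 of 8 oligodendrocyte, 6 of 7 fibroblast, 3 of 6 endothelial and 1 of 5 Schwann cell markers were higher and 0 lower. For blood and neutrophils, 2 of 7 were higher at day 3 and 0 of 7 at day 10. For the choroid plexus it was 1 of 10 higher and 3 lower at day 3 and 1 higher at day 10, and for the hippocampus 2 of 11 higher and 3 lower at day 3 and 1 higher at day 10. For the anterior pituitary it was 2 of 6 lower at day 3 and 0 of 4 called at day 10, and for T and B lymphocytes 0 of 1 at day 3 and 1 of 2 higher at day 10.

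*Sprr1a* is also a gene of skin. Of the keratinocyte markers, *Krt5*, *Krt14* and *Dsg3* were under 0.5 FPKM in all 17 hypothalamic libraries other than Sham 1, and the sum of the 7, led by *Krt1*, was 4.57, 7.46 and 5.02 FPKM in PEL_3d and 7.53 and 8.05 FPKM in Sham 2 and Sham 3. Of 4 tested, 0 were higher and 1 lower at day 3, and 0 were called at day 10.

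The genes whose levels were most like those of 4 of the genes were found by Pearson's r of log2(FPKM + 1) over the 17 hypothalamic libraries other than Sham 1 (n = 17), among 13395 genes, as a description; these libraries share their groups. For *Atf3* they were *Capg* (r = 0.98), *Lgals3* (0.978), *Cd68* (0.976), *Cd84* (0.976) and *Slamf9* (0.976), of which *Lgals3* and *Cd68* are on the list of microglia and macrophage markers. *Cd68* had 140, 108 and 173 FPKM in PEL_3d, 75.0, 29.1 and 59.7 FPKM in PEL_10d, and 3.77 and 4.54 FPKM in Sham 2 and Sham 3. For *Sprr1a* they were *Cd34* (0.98), *Olfml3* (0.977), *Susd3* (0.973), *Pik3cg* (0.973) and *Tent5c* (0.972). *Olfml3* had 29.9, 30.4 and 34.3 FPKM in PEL_3d, 9.95, 8.39 and 9.73 FPKM in PEL_10d, and 4.84 and 4.86 FPKM in Sham 2 and Sham 3. For *Gap43* they were *Minar2* (0.94), *Rtl8b* (0.929), *Wrb* (0.925), *Tmem114* (0.923) and *Tagln3* (0.919), and for *Stmn2* they were *Calm3* (0.92), *Ppp2r2b* (0.912), *Idh3a* (0.903), *Gap43* (0.895) and *Tmx2* (0.894). With a pseudocount of 0.1, 1 of the 5 genes for *Atf3* and 2 of the 5 for *Sprr1a* remained, and all 5 each for *Gap43* and *Stmn2*.

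The 250 bases before a RefSeq start of each gene were read from a RefSeq table of promoters (GRCm38.p6), which matched 8 of the 10 genes, all but *Gap43* and *Stmn2*. They were searched on both strands for TGACTCA (the AP-1 site), TGACGTCA (the CRE), TTGCATCA (a composite of C/EBP and ATF sites) and GGGCGG (the GC box), none of which contains another. Of all 32851 promoters of this length, 4.46% hold TGACTCA, 1.55% TGACGTCA, 0.791% TTGCATCA and 32.7% GGGCGG. The AP-1 site was found in 2 of the 8, in *Sprr1a* at 146 and 116 bases before the start and in *Ddit3* at 242 bases. TTGCATCA was found in *Atf3* only among the 8, at 110 bases before the start, and TGACGTCA in 0. The GC box was found in 5 of the 8, with 5 matches in *Atf3*, 2 in *Sox11* and 1 each in *Jun*, *Klf6* and *Gadd45a*. The promoters of *Atf3* (chr1:191183334-191183583, minus strand) and *Sprr1a* (chr3:92485882-92486131, minus strand) are shown because these genes rose most. The start of *Atf3* in this table lies inside the interval given for the gene above, far from its outer end, and other starts were not searched. Capitals mark TTGCATCA in *Atf3* and, in *Sprr1a*, TGACTCA read from the other strand; a match describes the sequence and shows no binding.
Atf3: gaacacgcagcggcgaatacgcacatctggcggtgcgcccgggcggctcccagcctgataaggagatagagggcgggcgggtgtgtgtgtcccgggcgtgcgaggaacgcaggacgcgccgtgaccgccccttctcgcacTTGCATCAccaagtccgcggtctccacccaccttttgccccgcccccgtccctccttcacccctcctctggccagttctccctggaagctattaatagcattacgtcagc
Sprr1a: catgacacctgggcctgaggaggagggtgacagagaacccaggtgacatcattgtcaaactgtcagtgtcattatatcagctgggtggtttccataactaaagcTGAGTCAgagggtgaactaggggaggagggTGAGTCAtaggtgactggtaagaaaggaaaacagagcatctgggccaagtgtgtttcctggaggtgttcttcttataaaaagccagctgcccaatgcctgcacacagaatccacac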

How the data were processed

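Reads were aligned with Hisat2 and counted with featureCounts, according to the study's methods; the submitters' processing notes name the builds GRCm38 and mm10, and gene positions here are those of GENCODE M21 on GRCm38. The authors deposited estimated counts per gene and library, of which 8.22% were not whole, and they were rounded for the tests. The FPKM values were normalised by the authors for length and library size and used as deposited. Of 22274 identifiers, 22219 matched a symbol in a table of gene names and 55 did not; of the 2 *Ddit3* entries, the one with more counts was used. Total counts per library ranged from 15095267 to 17973494.

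Counts were tested with edgeR 4.0.16 and limma 3.58.1 in R 4.3.3 (TMM, filterByExpr with a minimum count of 10, glmQLFit and glmQLFTest, Benjamini-Hochberg adjustment, threshold 0.05), in fits of the compared groups only and without covariates. Sham 1 was left out because the study left out an unnamed Sham library and Sham 1 stood apart. The difference of 2 effects was tested as an interaction contrast. Scripts were tested on simulated data. The alternatives were DESeq2 1.42.0, DESeq2's size factors, no filter, a replicate block, 1 fit over all hypothalamic groups, Sham 1 kept, and leaving out each library. Tables and plots were made with Python 3.11.15, numpy 2.4.6, pandas 2.3.3, scipy 1.17.1 and matplotlib 3.10.9. Ratios of *Sprr1a* counts have exact binomial intervals.

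The genes and lists were chosen with earlier results of these data known. Named were the 10 genes; from each list, up to 4 genes with the largest absolute log2 change among those called; relatives of the 10 genes; the 5 genes most like 4 of them, with a pseudocount of 1 and a mean FPKM of at least 1; and the defining and most abundant markers. *Map3k12* falls outside this rule and was named after its values were seen. The 8 gene lists were AP-1 and ATF factors, injury-induced transcription factors, KLF genes, growth cone and cytoskeleton, injury-induced peptides, receptors and enzymes, integrated stress response, growth arrest and p53 targets, and the DLK and JNK cascade with axon degeneration. Marker lists covered hypothalamus, hippocampus, choroid plexus, anterior pituitary, microglia and macrophages, blood and neutrophils, T and B lymphocytes, astrocytes, oligodendrocytes, neurons, Schwann cells, keratinocytes, fibroblasts and meninges, and endothelium. Results that need items withheld for evaluation are not reported here.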

Additional observations from a re-analysis of the deposited data

Results flagged for a closer look

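Levels of some of the 10 genes differed between the lesioned groups at day 10 and at day 3. The Sham libraries are labelled day 0, so a change in the effect of the lesion and other changes with time cannot be told apart. The log2 difference was -1.22 for *Atf3*, -0.53 for *Sox11*, -3.12 for *Sprr1a* and -0.31 for *Klf6* without GH, and -1.76 for *Sprr1a* with GH. The call of *Klf6* was lost without PEL_3d 1 or without PEL_10d 2 (edgeR adjusted p 0.0771 and 0.0746). *Sox11* was also above Sham 2 and Sham 3 in all 3 PEL_3d libraries and below both in all 3 PEL_10d libraries. Neither change in *Sox11* against Sham was called (edgeR adjusted p 0.1748 and 0.06636). With GH, its groups overlapped, and its log2 difference between the days was -0.24 (edgeR adjusted p 0.2569). No cause of these differences was tested.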

How the results depend on the processing

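Among alternatives for single genes, 729 kept the direction and the side of the threshold, and 28 turned the sign or, for *Gadd45a* in the hippocampus without HIP_Sham 1, reached 0. Of those that kept the sign, 25 lost a call and 15 gained one. Some that turned the sign lost or gained a call too. The cause was not tested. With Sham 1 kept, 3 of the 10 genes and 1683 genes in all were called at day 3, 269 genes at day 10, 0 in Sham_GH against Sham, 0 for the day 3 difference with GH and 94 for the difference between tissues; *Gap43* turned to 0.26 at day 3 and 0.24 at day 10, *Ecel1* to 0.19, 0.50 and, in Sham_GH against Sham, 0.38, and *Stmn2* to 0.031 at day 3. In 1 fit over all hypothalamic groups, 2 of the 10 (*Sprr1a* and *Atf3*) and 4120 genes were called in PEL_10d_GH against PEL_3d_GH, 9 and 2 genes for GH at day 3 and day 10, and 13 in Sham_GH against Sham; *Ddit3* turned to 0.004 in PEL_3d_GH against Sham_GH, and *Ecel1* and *Gap43* lost their calls at day 3 (edgeR adjusted p 0.164 and 0.0706). DESeq2 called 57 and 41 genes for GH at day 3 and day 10, 262 in Sham_GH against Sham, 200 in the hippocampus, 148 and 97 for the differences with GH, and 811 between tissues with 2 of the 10. Without the filter, 8 genes were called for GH at day 3, 360 in Sham_GH against Sham, and 19 and 12 for the differences with GH. A pseudocount of 0.1 kept 13 of the 20 genes most like the 4. With the replicate block, 1109 genes were called in PEL_10d_GH against PEL_3d_GH, 1 for GH at day 3, 317 in Sham_GH against Sham, 0 for the day 3 difference with GH and 157 between tissues, and *Gap43* turned to 0.021 in the hippocampus and -0.34 between tissues; *Gap43* lost its call at day 3 (adjusted p 0.0956) and *Jun* gained one between the days (adjusted p 0.0417). Same-numbered samples shared only a number: their deviations correlated from -0.294 to 0.224 over 27 pairs, with 0 comparisons over 0.1 throughout. Leaving out each library gave 3395 to 6632 genes called at day 3, 205 to 1486 at day 10, 1333 to 2800 between the days and 704 to 4435 with GH (1 to 4 of the 10), 1 to 56 for GH at day 3, 44 to 190 in Sham_GH against Sham, and 0 to 873 in the hippocampus (0 to 1 of the 10); without HIP_Sham 1, 1616 genes and 2 of the 10 were called between tissues. The sign turned within -0.289 to 0.055 for *Ddit3* at day 3. At day 10 it turned within -0.19 to 0.13 for *Ecel1* and -0.008 to 0.332 for *Ddit3*, and between the days within -0.056 to 0.069 for *Gap43*. At day 3 with GH it turned within -0.021 to 0.204 for *Sox11* and -0.094 to 0.075 for *Ddit3*. For GH at day 10 it turned within -0.15 to 0.52 for *Atf3* and -0.18 to 0.28 for *Gadd45a*. In the hippocampus it turned within -0.85 to 0.76 for *Gap43* and -4.25 to 1.84 for *Ecel1*. The change of *Gadd45a* there ran from -0.82 to 0 and did not turn. Between tissues the sign turned to -1.04 for *Gap43* and -1.92 for *Ecel1*. Few counts of *Sprr1a* in Sham limit the precision of its ratio. The genes were measured in whole tissue, so these data do not give the cells in which they changed, and Sham has 2 libraries in the hypothalamic comparisons.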

Other observations

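The library labelled PEL_10d_GH 3 had 5479 FPKM of *Pomc* and 32.4 FPKM of *Prl*. The other PEL_10d_GH libraries had 24.2 and 30.2 FPKM of *Pomc* and 0.133 and 5.05 FPKM of *Prl*. Both are genes of the pituitary, and *Pomc* is also on the list of hypothalamus markers used here. PEL_10d_GH 3 was the highest of its group for *Atf3* (13.1 FPKM), *Gadd45a* (8.99 FPKM), *Jun* (24.9 FPKM), *Klf6* (16.2 FPKM) and *Sox11* (2.85 FPKM). It was the lowest for *Gap43* (222 FPKM), *Ecel1* (38.4 FPKM) and *Stmn2* (169 FPKM).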
